A study of Rattus norvegicus with 6 samples.

Results

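The transcripts of 10 glutathione S-transferase genes (Gsta4, Gstm1, Gstm2, Gstm3, Gstp1, Gstt1, Gstt2, Gsto1, Gstk1 and Mgst1) were followed in rat renal cortex, out of 15645 named genes on the array. A probe belonged to a gene when its RefSeq accession carried that symbol, which gave 15 probes. All 15 were well above background on all 6 arrays, and none was saturated. The samples came from 6 Sprague-Dawley (Crl:CD(SD)) rats, all male, bought at an age of 5 weeks and fed a basal diet. In the DNPT group, 3 rats received N,N'-dinitrosopentamethylenetetramine, an N-nitroso compound used as a blowing agent for rubber, at 200 mg/kg/day for 4 weeks. In the vehicle group, 3 rats received corn oil for 4 weeks. Each sample was hybridised to its own 1-colour Agilent array, with 3 animals per treatment in the protocol, so the number of arrays limits the precision.

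Glutathione S-transferases join the tripeptide glutathione to electrophiles, such as alkylating agents and products of lipid peroxidation, and the conjugates are then trimmed and acetylated to mercapturic acids, largely in the kidney. The soluble enzymes form classes named by Greek letters, and alpha, mu, pi, theta, omega and kappa are represented among the 10 genes. Mgst1 belongs to a separate family of membrane-bound enzymes. Many transferase genes are induced by NRF2, a transcription factor that KEAP1 holds back in unstressed cells. In the rat kidney, alpha class protein is used as a marker of the proximal tubule and mu class protein as a marker of distal segments.

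Signals are given as log2 of the processed intensity relative to the 75th percentile of the array, so that 1 unit is a doubling. Every change is DNPT minus vehicle. The 75th percentile was lower on the DNPT arrays (953 to 1112) than on the vehicle arrays (1164 to 1329). Where a gene had several probes, the brightest stands for it. Levels of different genes are not compared, because probes differ in brightness. In a tissue sample, fewer cells of a type and less RNA per cell cannot be told apart.

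Of the 10 transferase genes, 9 had positive changes and 1, Gstt2, had a negative change, although the sign of Gsta4 (change 0.00) turned with quantile normalization. Their median change was 0.18, beside 0.01 for all 34915 features tested, of which 51.9% had positive changes. None of the 10 passed limma's test at a Benjamini-Hochberg adjusted p of 0.05 over all features (smallest adjusted p = 0.286, for Gstm2). That rule called 0% of all features, 0 of 34915, and 4227 features reached an unadjusted p under 0.05. Among the members, Gstm2, Gstm3 and Gstt1 were higher at an unadjusted p under 0.05, 3 of 10 beside a background of 5.95% of features. At that threshold 0 were lower, beside 6.16%. The second probe of Gstm3 did not reach it. In 4 members, Gstm2, Gstm3, Gstt1 and Gsto1, the lowest DNPT value exceeded the highest vehicle value, beside 11.9% of features. In 0 members was the highest DNPT value under the lowest vehicle value, beside 8.32% of features.

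**Figure D1:**
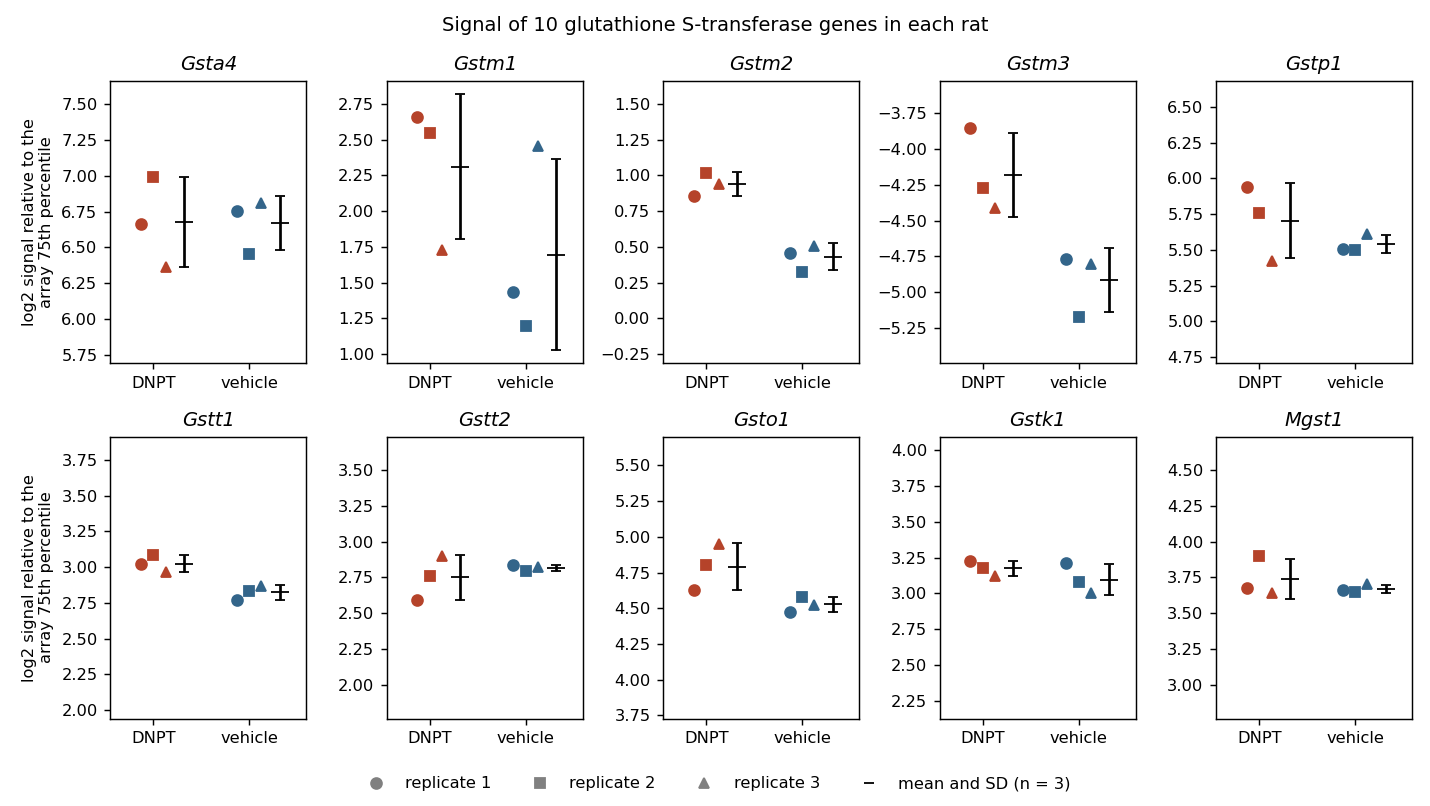
Log2 signal relative to the array's 75th percentile (vertical axis, the same span of units in each panel) of the 10 glutathione S-transferase genes in DNPT rats (left) and vehicle rats (right), with 1 symbol per rat and the mean and SD over n = 3 beside each group. The DNPT and vehicle values do not overlap for Gstm2, Gstm3, Gstt1 and Gsto1, and Gstm1 has the widest spread within both groups.

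The 3 vehicle samples and DNPT replicate 1 were on slide 1, and DNPT replicates 2 and 3 were on slide 2, scanned on a later day. The only comparison within a slide is therefore DNPT replicate 1 against the 3 vehicle rats. The whole series counted 4227 features at an unadjusted p under 0.05, and this number was 2574 without vehicle replicate 1, 2541 without vehicle replicate 2, 7269 without DNPT replicate 1 and 2393 with slide as a block. Without DNPT replicate 1, which leaves slide 2 alone against slide 1, 621 features passed the adjusted test, and none of the 10 genes was among them.

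The tissue carried the markers of renal cortex. All 9 proximal tubule markers were measured, and their summed signal, in multiples of the array's 75th percentile, ranged from 2029 to 2444 in DNPT rats and from 1865 to 2274 in vehicle rats (median change 0.09). Of 12 liver transcripts, 11 had positive changes. Their median deviation from the vehicle mean was -0.09 in DNPT replicate 1, -0.28 in DNPT replicate 2 and 3.54 in DNPT replicate 3. The summed signal of the 12 ranged from 3.37 to 33.4 in DNPT rats and from 3.43 to 6.15 in vehicle rats. The highest sum belonged to DNPT replicate 3, where the transferases had a median of 0.06 above the vehicle mean, while DNPT replicate 1 had 0.16 and DNPT replicate 2 had 0.27. The median change of the 10 genes was 0.21 without DNPT replicate 3. Of 6 red blood cell markers, 6 had positive changes (median 0.35), with summed signals of 701 to 788 in DNPT rats and 544 to 670 in vehicle rats. Of 6 leukocyte markers, 5 had negative changes (median -0.29), with sums of 50.4 to 64.6 in DNPT rats and 61.7 to 77.2 in vehicle rats. Lyz2, the brightest of these probes in every rat, weighed most in those sums. The other marker, Cd79b, had a change of 1.14 (SE 0.20) without overlap, with 2 DNPT values. Of 6 adrenal markers, Cyp11b1, Cyp11b2, Mc2r and Star did not pass the filter on dim probes, while Cyp11a1 (change -0.48, SE 0.41) and Hsd3b1 (0.21, SE 0.32) did and overlapped between the groups. Among markers of the nephron, 4 of 4 intercalated cell genes (median 0.37) and 2 of 3 principal cell genes (median 0.49) had positive changes, with Aqp2 at -0.34 (SE 0.16). Negative changes were found for 4 of 4 genes of the proximal straight segment (median -0.33), 2 of 2 of the thick ascending limb (median -0.15), 4 of 4 of the inner medulla (median -0.16), 2 of 3 podocyte genes (median -0.01) and the single tested gene of the distal convoluted tubule, Slc12a3 (-0.11, SE 0.16). The negative counts include values near 0, Aqp3 of the inner medulla (-0.00037, SE 0.24) and the podocyte gene Nphs1 (-0.0096, SE 0.08). The part of the cell types above in the values of the transferases was not tested.

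The mu class had the largest changes among the 10 genes. Mu enzymes conjugate epoxides and other electrophiles, and Gstm1, Gstm2 and Gstm3 lie side by side on chromosome 2 in the RefSeq annotation of assembly GRCr8. Gstm2 had signals of 0.85, 1.02 and 0.94 in DNPT rats and 0.46, 0.33 and 0.51 in vehicle rats. The groups did not overlap, and the spread within each group (SD 0.08 in DNPT and 0.09 in vehicle rats, n = 3 each) was small beside the gap between them. The change was 0.51 (SE 0.09), a 1.42-fold higher signal with a 95% interval of 1.21-fold to 1.67-fold (limma, unadjusted p = 0.00169, adjusted p = 0.286). DNPT replicate 1 alone lay 0.42 above the vehicle mean of the same slide. Across the 18 alternatives the change lay between 0.42 and 0.55, and the lowest value came from slide 1 alone and from slide as a block, which both rest on that single DNPT rat.

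Gstm3, another mu enzyme, had signals of -3.85, -4.27 and -4.41 in DNPT rats and -4.77, -5.17 and -4.80 in vehicle rats. All DNPT values were higher than all vehicle values, and DNPT replicate 1 was the highest of the 6. Its change was 0.74 (SE 0.19), or 1.67-fold with a 95% interval of 1.20-fold to 2.30-fold (limma, unadjusted p = 0.00879, adjusted p = 0.354). In vehicle rats this probe was the dimmer of the Gstm3 probes (mean -4.91 against -4.85). It stood for the gene only through its DNPT values (mean -4.18 against -4.35). The second Gstm3 probe read -4.35, -4.28 and -4.43 in DNPT rats and -4.47, -5.40 and -4.68 in vehicle rats, again without overlap, with a change of 0.50 (SE 0.25). The change of the gene ranged from 0.35 after normexp background correction to 1.07 within slide 1, where DNPT replicate 1 is the only treated rat, and its signal was dim.

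Gstm1, the abundant mu enzyme of rat liver, varied more from rat to rat than any other member. It had signals of 2.66, 2.55 and 1.73 in DNPT rats and 1.44, 1.20 and 2.46 in vehicle rats. Vehicle replicate 3 stood with the 2 high DNPT rats, and DNPT replicate 3 stood nearer the 2 low vehicle rats, so the groups overlapped. The change of 0.62 (SE 0.41) was of the size of that of Gstm3, but its 95% interval ran from -0.39 to 1.63 (limma, adjusted p = 0.537), and the SDs were 0.51 in DNPT and 0.67 in vehicle rats, against medians over all features of 0.18 and 0.13. Without vehicle replicate 3 the change was 1.00 (unadjusted p = 0.0285), and without vehicle replicate 2 it was 0.37 (unadjusted p = 0.440). The sequences of the probes were not used here, so whether a mu class probe also binds the transcript of a neighbouring gene was not tested.

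The 250 bases before the annotated start of Gstm2 and Gstm3, the mu members whose groups did not overlap, and of their neighbour Gstm1 are shown to let the upstream sequences of neighbouring genes be compared. They are RefSeq sequences of GRCr8, all on the minus strand, from chr2:198316918-198317167 for Gstm2, chr2:198300668-198300917 for Gstm3 and chr2:198343384-198343633 for Gstm1. Capitals mark TATAAA on either strand, the letters known from the TATA box of core promoters.
Gstm2: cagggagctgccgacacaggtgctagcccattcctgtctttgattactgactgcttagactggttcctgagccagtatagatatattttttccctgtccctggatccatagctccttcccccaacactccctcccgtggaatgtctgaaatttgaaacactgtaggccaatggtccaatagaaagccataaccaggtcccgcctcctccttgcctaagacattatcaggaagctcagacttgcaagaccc
Gstm3: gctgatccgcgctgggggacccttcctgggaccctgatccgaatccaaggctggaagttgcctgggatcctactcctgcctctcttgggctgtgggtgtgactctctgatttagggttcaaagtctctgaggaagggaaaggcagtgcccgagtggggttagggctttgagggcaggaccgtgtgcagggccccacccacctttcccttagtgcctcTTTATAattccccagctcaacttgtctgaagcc
Gstm1: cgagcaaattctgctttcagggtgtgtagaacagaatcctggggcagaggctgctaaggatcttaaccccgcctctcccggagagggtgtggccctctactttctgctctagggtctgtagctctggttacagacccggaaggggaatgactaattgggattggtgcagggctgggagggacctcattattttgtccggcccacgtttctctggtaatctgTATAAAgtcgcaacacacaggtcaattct
The letters were found in Gstm1, starting 29 bases before the start, and on the opposite strand in Gstm3, starting 33 bases before it, and not in the Gstm2 window, while 12.9% of 33469 rat promoters of this length held them. In a global alignment, Gstm3 and Gstm1 matched at 53.4% of alignment columns, Gstm3 and Gstm2 at 49.4%, and Gstm2 and Gstm1 at 49.4%, beside a median of 46.0% over 289 pairs of transferase promoters from different classes. The highest of those 289 pairs matched at 52.6%, and the pair of Gstm2 and Gstk1 at 49.4%. Within the mu class, Gstm3 and Gstm4 matched at 43.2%.

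The pi class gene Gstp1 encodes the placental form, a classical marker of preneoplastic foci in rat liver. Its brightest probe read 5.94, 5.75 and 5.42 in DNPT rats and 5.51, 5.50 and 5.61 in vehicle rats. DNPT rats were spread around the vehicle rats, with replicates 1 and 2 above and replicate 3 below all of them. The change was 0.17 (SE 0.15, 95% interval -0.19 to 0.53, limma adjusted p = 0.633). The other Gstp1 probes had changes of 0.05 (SE 0.14) and 0.32 (SE 0.23), so 3 of 3 probes were positive and none separated the groups. DNPT replicate 1 lay 0.40 above the vehicle mean.

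Of the 8 member promoters in the RefSeq table, Gstp1 alone held the core of the antioxidant response element, TGACNNNGC, in the 250 bases before the start, searched on both strands. This is the element through which NRF2 acts, and it is shown for that reason, in capitals, in the sequence of chr1:210769706-210769955 (GRCr8, minus strand).
Gstp1: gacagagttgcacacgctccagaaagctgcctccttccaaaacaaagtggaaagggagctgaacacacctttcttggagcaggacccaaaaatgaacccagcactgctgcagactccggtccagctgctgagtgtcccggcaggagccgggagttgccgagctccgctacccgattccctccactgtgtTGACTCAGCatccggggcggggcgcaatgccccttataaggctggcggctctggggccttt
The match, TGACTCAGC, starts 61 bases before the annotated start, and 10.1% of the 33469 promoters held a match. The core was therefore not particular to Gstp1. Outside the members, the windows of Gstm5, Gstm7, Gsta3, Gstz1 and Gstcd also held it. A match is a set of letters and does not show that the site was bound in these kidneys.

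The alpha class was represented by Gsta4, whose enzyme is known for conjugating 4-hydroxynonenal, a product of lipid peroxidation. Gsta4 read 6.66, 6.99 and 6.37 in DNPT rats and 6.75, 6.46 and 6.81 in vehicle rats. The DNPT group held both the highest and the lowest value of the 6. The change was 0.00 (SE 0.19, limma adjusted p = 0.997), and the 95% interval ran from 0.724-fold to 1.38-fold. Its second probe had a change of 0.05 (SE 0.19).

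The theta class enzyme GSTT1 acts on small halogenated molecules such as dihalomethanes. The 2 theta genes among the 10, Gstt1 and Gstt2, had changes of opposite sign. Gstt1 read 3.02, 3.09 and 2.97 in DNPT rats and 2.77, 2.84 and 2.87 in vehicle rats. All DNPT values were higher, and both groups were tight (SD 0.06 in DNPT and 0.05 in vehicle rats, n = 3 each). The change was 0.20 (SE 0.08), or 1.15-fold (limma, unadjusted p = 0.0452, adjusted p = 0.409), and the unadjusted p was under 0.05 in 7 of 18 alternatives. Gstt2 read 2.59, 2.76 and 2.90 in DNPT rats and 2.83, 2.79 and 2.82 in vehicle rats, so the vehicle values lay inside the range of the DNPT values. Its change was -0.07 (SE 0.10, 95% interval -0.32 to 0.19, adjusted p = 0.798), and its second probe had a change of -0.13 (SE 0.16). The difference between the changes of Gstt1 and Gstt2 was not tested.

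Gsto1, of the omega class, reduces dehydroascorbate and methylated arsenic rather than conjugating typical electrophiles. It read 4.62, 4.80 and 4.95 in DNPT rats and 4.48, 4.58 and 4.52 in vehicle rats. The groups did not overlap, with DNPT replicate 1 close to the highest vehicle rat. The change was 0.26 (SE 0.11), or 1.20-fold (limma, unadjusted p = 0.0502, adjusted p = 0.413). On slide 1, DNPT replicate 1 lay only 0.10 above the vehicle mean, and with normexp background correction the change was 0.08.

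Gstk1, found in mitochondria and peroxisomes, read 3.23, 3.18 and 3.12 in DNPT rats and 3.21, 3.08 and 3.00 in vehicle rats. The groups overlapped, and the change was 0.08 (SE 0.09, 95% interval -0.14 to 0.30, limma adjusted p = 0.717). Mgst1, a microsomal and outer mitochondrial enzyme, read 3.68, 3.90 and 3.64 in DNPT rats and 3.66, 3.65 and 3.70 in vehicle rats. DNPT replicate 2 was the highest of the 6 and DNPT replicate 3 the lowest, and the change was 0.07 (SE 0.10, 95% interval -0.17 to 0.31, adjusted p = 0.777). The intervals reached up to 1.23-fold for Gstk1 and 1.24-fold for Mgst1. An exact permutation test of a single gene in this design, 3 rats against 3, cannot give a two-sided p below 0.1. Any gene with all 6 values and no overlap between the groups reaches that floor. Gstm2, Gstm3, Gstt1 and Gsto1 reached it for that reason, so it adds nothing to their lack of overlap. Among all features, 11.9% were higher and 8.32% lower without overlap.

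**Figure D2:**
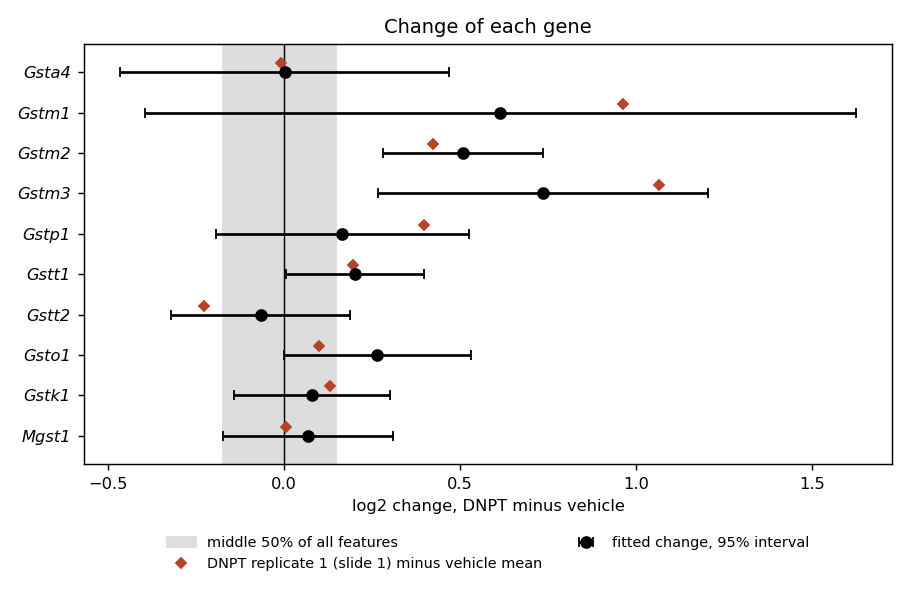
Fitted log2 change, DNPT minus vehicle, of each gene (black, with the 95% interval of limma's fit), DNPT replicate 1 minus the vehicle mean of the same slide (red), and the middle 50% of all features (grey band, -0.17 to 0.15). The intervals of Gstm2, Gstm3 and Gstt1 lie above 0, and that of Gstm1 is the widest.

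Beyond the 10 genes, 16 other transferases and members of the MAPEG family, to which the microsomal enzymes belong, were tested. Of these, 12 had positive and 4 had negative changes (median 0.23), beside 51.9% positive among all features, and 0 passed the adjusted test. In 4 of the 16 every DNPT rat was above every vehicle rat, beside 11.9% of features, and in 1 every DNPT rat was below, beside 8.32%. With the 10 genes counted in, 6 of 6 alpha class genes, with Gsta4 at 0.002, had positive changes (median 0.22). So did 5 of 7 in the mu class (median 0.51, which is the value of Gstm2) and 3 of 3 among the microsomal enzymes (median 0.22). Every DNPT rat was above every vehicle rat in 1 of the alpha, 3 of the mu and 2 of the microsomal genes, beside 11.9% of features. Gsta6 had the smallest p outside the 10 genes. Its signal averaged 3.06 ± 0.15 over DNPT rats and 2.48 ± 0.08 over vehicle rats (SD, n = 3 each), with a change of 0.57 (SE 0.11, limma adjusted p = 0.294). Gstm7, a mu gene of the same chromosome 2 cluster, was at 0.85 ± 0.13 and 0.16 ± 0.36 in DNPT and vehicle rats, with a change of 0.69 (SE 0.20). Mgst2, whose signal was dim (mean -4.54 in DNPT rats), had a change of 0.54 (SE 0.16). Gstm5 (-0.09, SE 0.10) and Gstm6l (-0.16, SE 0.27) had negative changes. Of the relatives of the microsomal enzymes outside conjugation, Alox5ap, the partner of 5-lipoxygenase, averaged -3.17 ± 0.07 over DNPT rats and -2.94 ± 0.07 over vehicle rats, with a change of -0.22 (SE 0.09, adjusted p = 0.406).

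**Figure D3:**
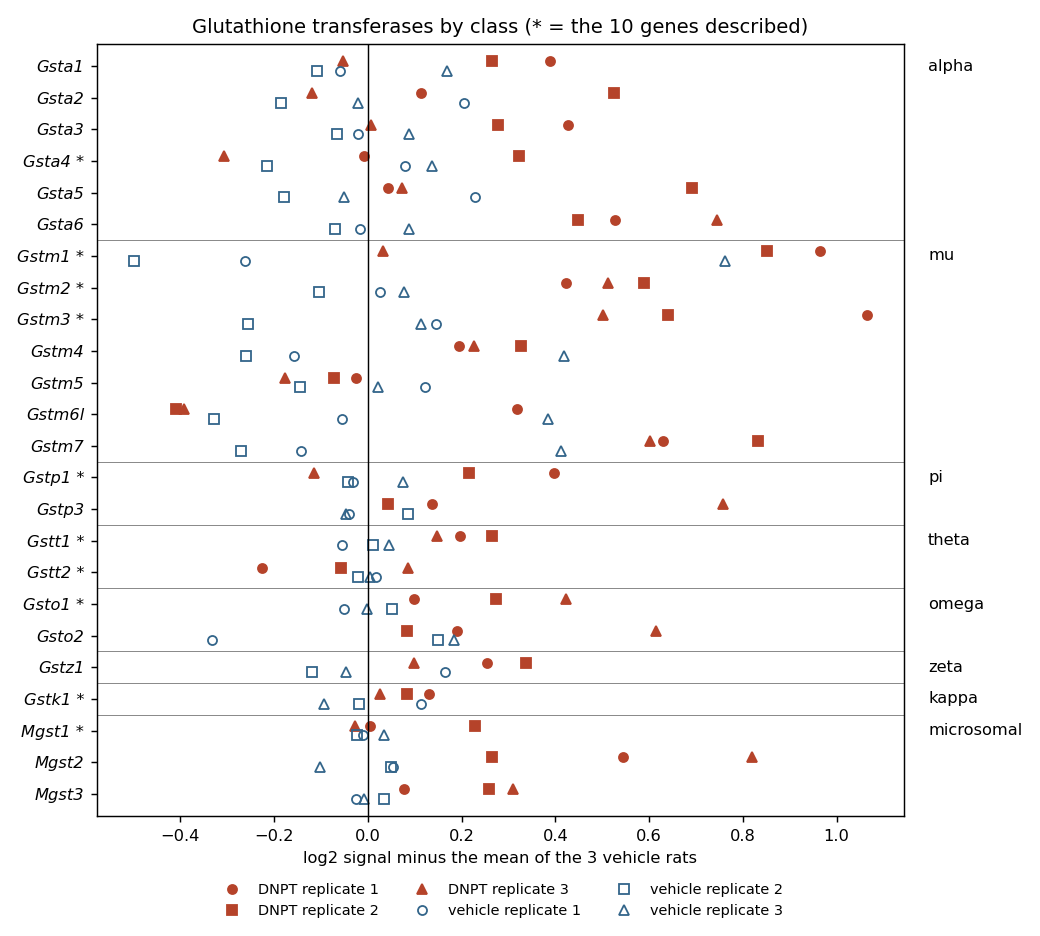
Log2 signal minus the mean of the 3 vehicle rats for the 24 glutathione transferase genes tested, ordered by class, with filled red symbols for DNPT rats and open blue symbols for vehicle rats, and a symbol shape per replicate number. For 8 genes, 4 of them among the 10, all red symbols lie to the right of all blue ones (11.9% of all features do), and the rats on the right differ from gene to gene.

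The rats that were high differed between genes. DNPT replicate 1 gave the highest value of all 6 rats for Gstm1, Gstm3, Gstp1 and Gstk1, DNPT replicate 2 for Gsta4, Gstm2, Gstt1 and Mgst1, and DNPT replicate 3 for Gstt2 and Gsto1. Counted as positive against the vehicle mean, DNPT replicate 1 had 8 positive genes of the 10, DNPT replicate 2 had 9 and DNPT replicate 3 had 7. Outside the family, the genes whose 6 values ran most like those of Gstm2, by the root mean square difference after each gene was centred on its mean, were Litaf (0.05), Ascl2 (0.05) and Cnksr1 (0.06), out of 12676 named genes with a value in every rat, beside a root mean square of 0.26 for Gstm2 itself. For Gstt2, the member with a negative change, they were Wdr46 (0.02), Cask (0.03) and Atmin (0.04), beside 0.10 for Gstt2 itself.

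The steps that follow conjugation were measured as 18 genes of the mercapturic acid pathway. In the kidney, gamma-glutamyltransferase and dipeptidases trim the conjugate to a cysteine conjugate, NAT8 acetylates it, and ABCC pumps export conjugates. Of the 18 genes, 14 had positive and 4 had negative changes (median 0.18), and 0 passed the adjusted test. At an unadjusted p under 0.05, 3 were higher and 0 lower, beside 5.95% and 6.16% of all features. In 3 genes every DNPT rat was above every vehicle rat and in 0 below, beside 11.9% and 8.32% of all features. Nat8 averaged 6.60 ± 0.33 over DNPT rats and 5.84 ± 0.04 over vehicle rats (SD, n = 3 each), without overlap, a change of 0.76 (SE 0.17) or 1.70-fold (limma, adjusted p = 0.335). The dipeptidase Dpep2 had a change of 0.97 (SE 0.30), the transferase Ggt5, which acts on leukotriene C4, 0.94 (SE 0.30), and the exporter Abcc4 0.35 (SE 0.15), all from the fit in which none passed. The groups overlapped for Ggt5 and Abcc4. Signals of Dpep2 and Ggt5 were dim, with means of -3.03 and -3.57 in DNPT rats and -4.00 and -4.51 in vehicle rats. Ggt1, the main brush border gamma-glutamyltransferase, was at -0.04 (SE 0.15), and Dpep1, the main renal dipeptidase, at 0.29 (SE 0.19).

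Genes that supply and recycle glutathione were measured as a list of 15. Of these, 5 had positive and 10 had negative changes (median -0.06, inside the middle 50% of all features), with 0 passing the adjusted test. At an unadjusted p under 0.05, 1 was higher and 2 were lower, beside 5.95% and 6.16% of all features. The difference between this list and the transferases was not tested. Gclm, the modifier subunit of the enzyme that limits glutathione synthesis, read -3.61, -5.49 and -5.84 in DNPT rats and -2.82, -3.58 and -3.03 in vehicle rats. It was not well above background in 1 of the 3 DNPT rats, and its change was -1.84 (SE 0.61, limma adjusted p = 0.393). From the vehicle mean, DNPT replicate 1, on the slide of the vehicle rats, deviated by -0.47. Replicates 2 and 3, on slide 2, deviated by -2.35 and -2.70. Slc7a11, which imports cystine, failed the background criterion on all 3 DNPT arrays. With the DNPT signals raised to a floor, its mean vehicle signal was 1.29-fold brighter. That floor was, for each DNPT array, the dimmest signal that met the criterion or the probe's own signal, whichever was higher. The 1.29-fold value compares group means and makes no allowance for the spread between rats. Without the floor the change was -1.10 (SE 0.43, interval -2.16 to -0.04, limma adjusted p = 0.408). DNPT replicate 1 then deviated from the vehicle mean by -0.30, and replicates 2 and 3 by -1.98 and -1.03. The mitochondrial carriers Slc25a39, a glutathione importer, and Slc25a11 had changes of 0.23 (SE 0.08) and 0.20 (SE 0.09), both without overlap. Every DNPT rat was above every vehicle rat in 2 of the 15 genes and below in 3, beside 11.9% and 8.32% of all features.

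Of 21 genes of the NRF2 axis and its classical targets, 12 had positive and 9 had negative changes (median 0.10), and 0 passed the adjusted test. At an unadjusted p under 0.05, 4 were higher and 3 lower, beside 5.95% and 6.16% of all features. Without overlap, 4 were higher and 3 lower, beside 11.9% and 8.32% of all features. Gclc, Gclm and Slc7a11 also stand on the supply list. The quinone reductase Nqo1 had a change of 0.86 (SE 0.19), transketolase Tkt 0.40 (SE 0.11) and the epoxide hydrolase Ephx1 0.33 (SE 0.09). Aox1, aldehyde oxidase, had a change of -0.76 (SE 0.18) and read below every vehicle rat in all 3 DNPT rats. Nfe2l2, the NRF2 gene, was at -0.03 (SE 0.10) and Keap1 at 0.10 (SE 0.09).

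**Figure D4:**
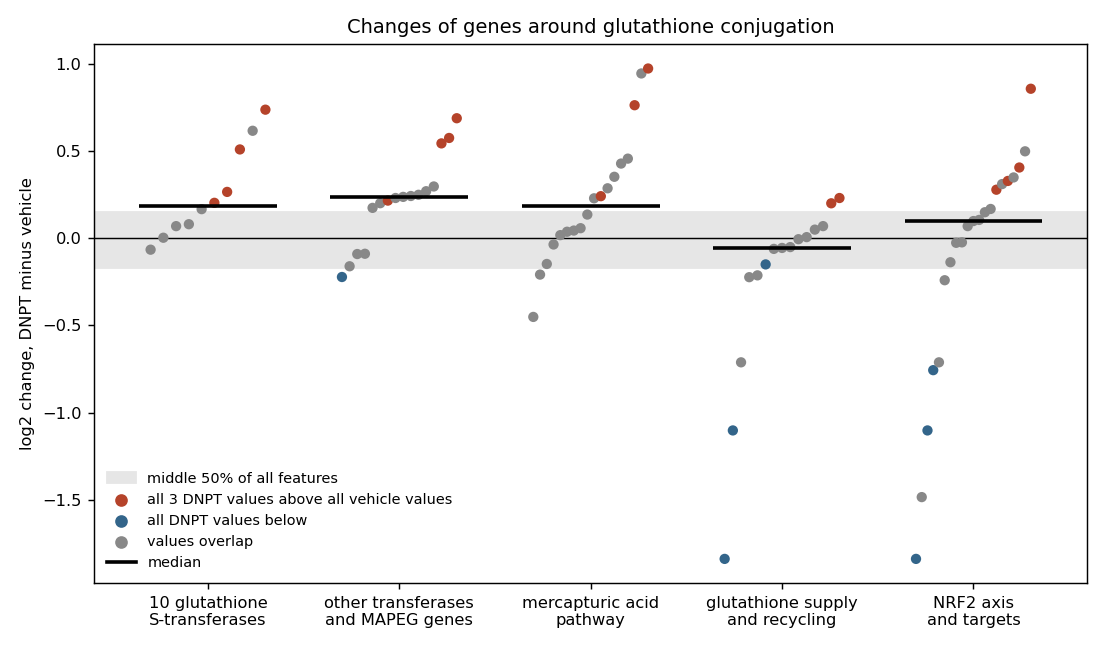
Log2 change, DNPT minus vehicle, of each gene of the 5 lists (red where every DNPT rat was above every vehicle rat, blue where every one was below, grey where they overlap), with the median as a black bar and the middle 50% of all features as a grey band. Medians are 0.18 for the 10 transferases, 0.23 for the other transferases and MAPEG genes (16 tested), 0.18 for the mercapturic acid pathway, -0.06 for glutathione supply and 0.10 for the NRF2 list.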

How the data were processed

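Per the file headers, the deposited scanner files hold an intensity per spot, the processed signal, which Agilent Feature Extraction made with background correction, and, per the submitters' processing notes, the version was 10.7. The deposited value table is on a linear ratio scale, being the processed signal divided by a constant of each array near its 75th percentile (100% of probes within 1% of the constant, column medians 0.112 to 0.116); how it was made is not given in the sources. Control spots and 113 flagged values were left out. Probes were named through RefSeq accessions (28206 of 61537 matched 1 gene of GRCr8, 33331 none). The processed signal was put on the log2 scale, the 75th percentile of its array was subtracted, and a probe was tested where 3 or more arrays had it well above background, with at least 2 values per group. The brightest probe stood for a gene, and unnamed probes entered singly, which gave 34915 features.

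DNPT was set against vehicle in limma 3.58.1 (lmFit, eBayes, R 4.3.3), two-sided, with Benjamini-Hochberg adjustment over all features, and the procedure was tested on simulated data. Changes of second probes come from the same fit on all 44305 probes tested. The 10 genes and the lists were chosen with earlier results of these data known. Named genes were the 10 members, up to 4 genes per list with the smallest p, and the 3 nearest patterns; other genes were chosen after their values were seen. Alternatives covered normalization, background correction, the value table, filters, probe rules, variance models, slide, replicate number and each sample left out. The files hold no spot mean, so normexp (offset 50) used the spot median. No protein sequences were used. Figures were drawn with matplotlib 3.10.9 in Python 3.11.15.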

Additional observations from a re-analysis of the deposited data

How the results depend on the processing

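The median change of the 10 transferase genes stayed positive under all 18 alternatives, from 0.10 to 0.21, and 0 of the 10 passed the adjusted test in any of them. Over all features, the adjusted test called 2 after normexp background correction, 1 with slide as a block, 0 to 621 with a sample left out (3 without vehicle replicate 2, 621 without DNPT replicate 1), and 0 otherwise. Features at an unadjusted p under 0.05 numbered 8737 with no filter on dim probes, 6525 with array weights, 2711 on slide 1 alone, 2393 in the fit that blocks on slide, and 2541 to 7269 with a sample left out. Of the 10 genes, 2 to 4 were higher at an unadjusted p under 0.05 throughout. On slide 1 alone, where DNPT replicate 1 stands by itself, 7 of the 10 genes lay above all vehicle rats, as did 10734 of 34912 features, and with a sample left out 4 to 6 did, beside 5358 to 7652 features. Gsta4 turned negative with quantile normalization (-0.14), normexp (-0.20), slide as a block (-0.0083) and slide 1 alone (-0.0083), and ranged from -0.16 to 0.16 with a sample left out. With a sample left out, Gstt2 ranged from -0.14 to 0.014 (positive without DNPT replicate 1) and Mgst1 from -0.011 (without DNPT replicate 2) to 0.12. The cause of these shifts was not tested.

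Same-numbered samples did not deviate together (correlations -0.18, -0.06 and -0.18 across features). Pairs with different numbers had correlations from -0.20 to 0.33. The deviations were taken from each group's own mean over n = 3, so they cannot show whether the numbers pair the rats. With the replicate number as a block, 0 features passed the adjusted test, 2 of the 10 genes were higher at an unadjusted p under 0.05, and the median change of the 10 was 0.18.

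Slide and group are partly confounded, since slide 2 holds no vehicle rat, so a fit with slide as a block rests on DNPT replicate 1 alone. With normexp the change of the dim gene Gstm3 was 0.35 and that of Gsto1 was 0.08. With no filter on dim probes, 6421 features were higher and 2316 lower in DNPT rats at an unadjusted p under 0.05, beside 2076 and 2151 with the filter.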
